A study of Mus musculus with 2 samples.

Results

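The thioredoxin and peroxiredoxin system was followed in 4T1 cells, a murine breast cancer line, by the 10 genes Txn1, Txn2, Txnrd1, Txnrd2, Srxn1, Prdx1, Prdx2, Prdx3, Prdx5 and Prdx6. The genes were taken by symbol, and all 10 were found among the 14197 genes of the deposited table. Total RNA came from wild-type 4T1 cells given 20 μM astragalin (AS), a plant flavonoid, for 24 h, and from wild-type 4T1 cells given the vehicle. There was 1 stranded mRNA library per condition, so no difference has a replicate check, no p-value is given, and intervals cover counting error only. In RNA from whole cultures, a difference in the number of cells of a type and a difference in RNA per cell cannot be told apart.

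The values are RPKM, the reads of a gene scaled to the length of its exons and to the size of the library. That length counts every annotated exon, which can exceed a single transcript by a different factor for each gene. Ranks, shares and ratios of levels between different genes are therefore rough. In a ratio between the libraries the length cancels. The RPKM of the genes times their exon lengths gave back library sizes of 44909683 reads for AS and 50820728 for vehicle, and whole reads for all 10 genes of the system. Of the markers of the line, all 8 epithelial genes were in the table, with a summed level of 1822 RPKM under AS against 2337 under vehicle. Of these, 6 were lower and 2 higher with AS, among them Krt14 at -0.96 and Krt19 at -0.73 on the log2 scale, both past 1.5-fold, and Cldn4 at 0.42 and Cdh1 at 0.17. Krt8 also passed 1.5-fold under TMM scaling, median-of-ratios scaling and upper-quartile scaling, and Krt7 under the last. Among markers of other cells, 2 of 5 fibroblast genes (5.13 and 4.87 RPKM in sum with AS and vehicle), 2 of 5 leukocyte genes (0.493 and 0.472 RPKM) and 0 of 3 endothelial genes were in the table. The part of the lower keratin levels in the values of the system was not tested.

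Thioredoxins are small proteins that reduce disulfides in other proteins. Thioredoxin reductases recharge them with electrons from NADPH, and peroxiredoxins use them to break down hydrogen peroxide through a reactive cysteine. When that cysteine is overoxidised, sulfiredoxin repairs it at the cost of ATP. The cytosol and the mitochondria each have their own thioredoxin and thioredoxin reductase, and they differ in their peroxiredoxins. In tumour cells the system is known for keeping peroxide low and for supplying electrons to DNA precursor synthesis.

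The cytosolic enzymes that restore other parts of the system were higher with AS. Srxn1 and Txnrd1, which encode sulfiredoxin and the cytosolic thioredoxin reductase, had 1.89-fold and 1.84-fold the vehicle level. Txn1, the cytosolic thioredoxin, and the peroxiredoxin genes Prdx1, Prdx2 and Prdx5 were lower, at 70.1 to 86.8 percent of the vehicle level, while Prdx6 was 1.16-fold higher. Txn2, Txnrd2 and Prdx3, whose main products are mitochondrial, had counting intervals that held 0 on the log2 scale. These 3 genes had the fewest reads of the 10 and the widest intervals. Prdx5, whose product is found in mitochondria among other places, was among the lower genes.

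**Figure D1:**
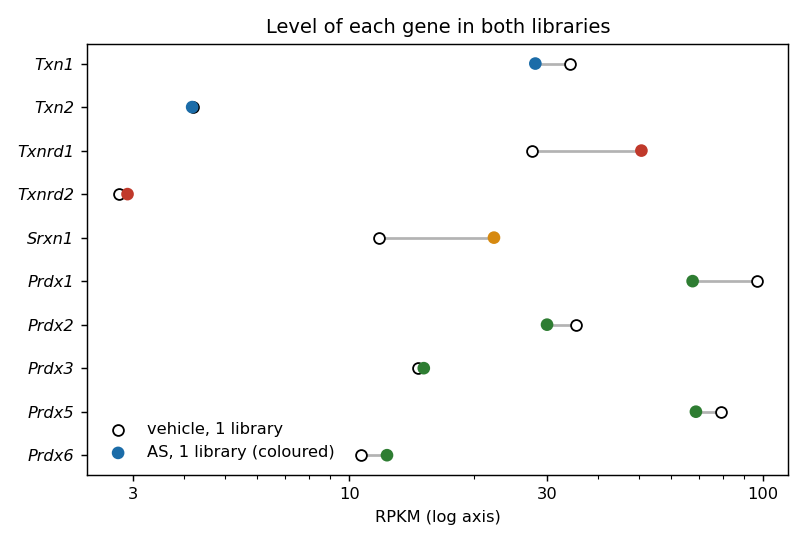
RPKM on a log axis for each of the 10 genes, with the vehicle library as an open circle and the AS library as a filled circle coloured by the role of the gene. Txnrd1 and Srxn1 lie far to the right of their vehicle values, Prdx1 lies furthest to the left of its own, and Txn2, Txnrd2 and Prdx3 nearly coincide.

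Fold changes were set on the log2 scale, AS over vehicle, after adding 0.1 RPKM. No gene of the 10 went beyond 1 on that scale. Over all genes 0.662% were higher and 0.31% lower by as much, so that 0 of 10 is near these shares. At a 1.5-fold change, a log2 value of 0.585, 2 of the 10 genes were higher and 0 were lower, beside 3.56% and 2.01% of all genes. The median log2 fold change of the 10 genes was 0.02, with a range from -0.51 to 0.92, and that of all 14197 genes was 0.07. Of the 10 genes, 5 were higher and 5 lower with AS, while 60.9% of all genes were higher. Under TMM scaling, which takes a trimmed mean over the genes, 3 of the 10 were higher and 7 lower, since Txnrd2 and Prdx3 changed sign, and 50.1% of the 12718 genes with whole reads were higher.

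Txnrd1 encodes the selenoenzyme that reduces thioredoxin in the cytosol and nucleus. Its level was 50.8 RPKM under AS against 27.6 under vehicle (16163 and 9939 reads), more reads than any other gene of the system had with AS. On the log2 scale the difference was 0.88, and the 95% Clopper-Pearson interval of the reads ran from 0.84 to 0.92. It was number 151 of the 14197 genes from the highest fold change down. Txnrd1 lies on the plus strand of chromosome 10 of GRCm38, from 82833951 to 82897712.

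Txnrd2, the mitochondrial reductase on chromosome 16 (18426384 to 18479073), had the lowest level of the 10 genes in both libraries. It was at 2.91 RPKM under AS against 2.78 under vehicle (576 and 622 reads). Its log2 fold change was 0.07, with an interval from -0.10 to 0.23, and it was -0.0056 under upper-quartile scaling. Within each library, Txnrd1 stood at 17.4 times the level of Txnrd2 with AS and at 9.92 times with the vehicle, and the ratio of these ratios was 1.76 (1.56 to 1.98).

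Both reductases, and the third member of the family, Txnrd3, place selenocysteine next to the end of the protein, at a UGA codon that would otherwise stop translation. The coding ends are shown because this codon is what the reductase genes have in common. They are the last 30 coding bases of GENCODE M21 transcripts in the direction of translation, with the selenocysteine codon in capitals and the stop codon last. The codon lies on GRCm38 at chr10:82896037-82896039 for Txnrd1, chr16:18477772-18477774 for Txnrd2 and chr6:89674789-89674791 for Txnrd3, all on the plus strand, and in each of these transcripts it is the only TGA inside the reading frame.
Txnrd1: gacatcctccagtctggctgcTGAggttaa
Txnrd2: gagcctactgtgactggttgcTGAggctaa
Txnrd3: gacattactcagaaaggctgcTGAggctag
In all 3 sequences the codon stands 2 codons ahead of the stop codon. Their values differed, with Txnrd1 higher and Txnrd3 lower under AS. Txnrd3, a reductase with an added glutaredoxin domain, was at 7.90 RPKM under AS against 8.61 under vehicle (1006 and 1241 reads). This was -0.12 on the log2 scale, with an interval from -0.25 to -0.0034 that ended just short of 0. None of the other 10 genes examined for this feature, the rest of the system with Prdx4 and Txnip, had such a codon.

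Srxn1 encodes sulfiredoxin, which restores the overoxidised cysteine of typical 2-Cys peroxiredoxins. Its level was 22.4 RPKM under AS against 11.8 under vehicle (2833 and 1691 reads). The log2 fold change of 0.92 was the largest of the 10 genes and number 130 of all 14197 from the top. Its counting interval ran from 0.84 to 1.01 and so reached past the threshold of 1. Srxn1 lies on the plus strand of chromosome 2, from 152105516 to 152111376. It was the seventh gene of the system by level with the vehicle and the sixth with AS.

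The differences of Srxn1 and Txnrd1 were of similar size. Srxn1 stood at 0.440 times the level of Txnrd1 with AS and at 0.428 times with the vehicle, and the ratio of these ratios was 1.03, with an exact interval from 0.965 to 1.10. Under all 6 alternative scalings and added amounts both genes were above 1.5-fold and below a log2 fold change of 1, at 0.81 to 0.88 for Txnrd1 and 0.85 to 0.92 for Srxn1.

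**Figure D2:**
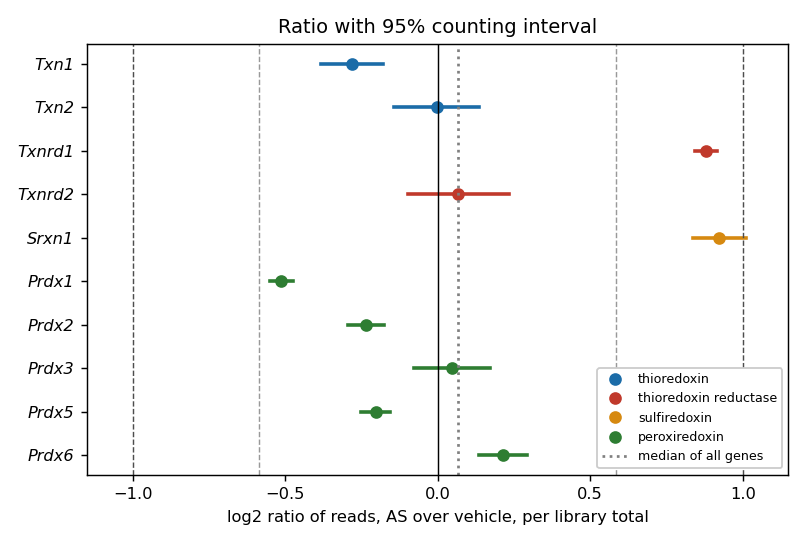
Log2 ratio of the reads per library total, AS over vehicle (points), with the 95% Clopper-Pearson interval (bars), coloured by role; dashed lines mark 1.5-fold and a log2 ratio of 1, and the dotted line marks the median of all genes. The bars of Txnrd1 and Srxn1 lie wholly above 1.5-fold, those of Txn1, Prdx1, Prdx2 and Prdx5 wholly below 0, and those of Txn2, Txnrd2 and Prdx3 cross 0.

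Txn1 encodes the cytosolic thioredoxin, the substrate of Txnrd1. Its level was 28.2 RPKM under AS against 34.2 under vehicle (1329 and 1828 reads). This gave a log2 fold change of -0.28, with an interval from -0.38 to -0.18. Per base of annotated exon, the reductase transcript was thus below that of its substrate with the vehicle and above it with AS. That order rests on exon lengths of 7086 bases for Txnrd1 and 1051 for Txn1. The Txnrd1 transcript searched for shared stretches is shorter, with 3573 stretches of 50 bases, so the vehicle order could differ per transcript. The ratio of Txnrd1 to Txn1 was 0.806 with the vehicle and 1.80 with AS, 2.24 times as high, with an interval from 2.07 to 2.41. Txn1 lies on the minus strand of chromosome 4 from 57943373 to 57956411, and 2.495% of the 50-base stretches of its transcript recur in 1 pseudogene.

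Txn2, the mitochondrial thioredoxin on chromosome 15 (77915047 to 77929006), was at 4.18 RPKM under AS against 4.19 under vehicle (789 and 895 reads). Its log2 fold change was -0.0034, with an interval from -0.14 to 0.14, and -0.08 at the lowest under the other settings. The ratio of Txnrd2 to Txn2 was 0.698 with AS and 0.664 with the vehicle, 1.05 times as high, and the interval from 0.903 to 1.22 held 1. A difference in this mitochondrial pair was not detectable at this depth.

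Of the 5 peroxiredoxin genes, 3 were lower with AS, Prdx6 was higher and the interval of Prdx3 held 0. Prdx1, the abundant cytosolic 2-Cys peroxiredoxin, had the largest difference among them. It was at 67.5 RPKM under AS against 96.4 under vehicle (9228 and 14904 reads), which is 70.1 percent of the vehicle level. As a log2 fold change this was -0.51, with an interval from -0.55 to -0.48, and it was number 414 of all genes from the lowest fold change up. The settings gave values from -0.59 to -0.51, and under upper-quartile scaling, which gave the lowest, Prdx1 was past 1.5-fold. Prdx1 lies on the plus strand of chromosome 4 from 116685544 to 116700822. Its value is uncertain to the extent of its copies, because 10.9% of the 50-base stretches of its transcript also occur in 3 pseudogenes and the handling of reads with several matches is not stated.

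Prdx2, a second cytosolic 2-Cys peroxiredoxin, was at 30.05 RPKM under AS against 35.4 under vehicle (4116 and 5485 reads). Its difference on the log2 scale was -0.24, with an interval from -0.29 to -0.18. Prdx2 lies on chromosome 8 from 84969587 to 84974834, and 8.96% of its 50-base stretches occur in 2 pseudogenes. Its exons also overlap genes on the opposite strand over 11.5% of their length, with Rnaseh2a as the largest overlap, and the strand setting of the counting is not stated. Prdx1 and Prdx2 did not differ by the same amount, since their ratio was 2.25 with AS and 2.72 with the vehicle, 0.825 times as high, with an interval from 0.786 to 0.866.

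Prdx5, an atypical peroxiredoxin found in mitochondria, peroxisomes and the cytosol, was at 68.8 RPKM under AS against 79.3 under vehicle (6607 and 8615 reads). Its log2 fold change was -0.20, with an interval from -0.25 to -0.16. By RPKM, which depends on the exon length used, it was second to Prdx1 among the 10 genes with the vehicle and first with AS. Prdx5 lies on chromosome 19 from 6906697 to 6910106, and 19.1% of its exon bases are shared with the opposite strand, mostly with Trmt112.

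Prdx3, the mitochondrial 2-Cys peroxiredoxin on chromosome 19 (60864051 to 60874556), was at 15.1 RPKM under AS against 14.7 under vehicle (1005 and 1101 reads). In log2 terms the difference was 0.05, with an interval from -0.08 to 0.17, and it turned to -0.03 under upper-quartile scaling. Prdx6, the 1-Cys peroxiredoxin that also acts as a phospholipase and takes electrons from glutathione rather than thioredoxin, was the only peroxiredoxin gene whose interval lay above 0. It was at 12.3 RPKM under AS against 10.6 under vehicle (2662 and 2600 reads). This was a log2 fold change of 0.21, with an interval from 0.13 to 0.29, and 0.14 at the lowest among the settings. Prdx6 lies on chromosome 1 from 161240112 to 161251219.

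Prdx4, the peroxiredoxin of the endoplasmic reticulum, was not among the 10 genes and is added to complete the family. It was at 10.6 RPKM under AS against 12.2 under vehicle, or -0.21 on the log2 scale. Summed over all 6 genes, the peroxiredoxin level was 204 RPKM under AS against 249 under vehicle. Prdx1 made up 33.0% of this sum with AS and 38.8% with the vehicle, Prdx5 33.6% and 31.9%, and Prdx2 14.7% and 14.2%. The share of Prdx3 was 7.41% with AS and 5.90% with the vehicle, and that of Prdx6 was 6.04% and 4.28%. Per base of annotated exon, Prdx1 thus had the largest share with the vehicle and Prdx5 with AS, by a small margin. That order rests on exon lengths of 3043 bases for Prdx1 and 2139 for Prdx5. The transcripts searched for shared stretches are shorter, with 2245 and 706 stretches of 50 bases, so the order could differ per transcript. Txnip, the inhibitor of thioredoxin, was at 31.9 RPKM under AS against 32.5 under vehicle, or -0.03 on the log2 scale, and 19.4% of its exon bases are shared with the opposite strand, mostly with Gm15441.

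The repair enzyme was compared with its substrates within each library, a ratio that does not change with the scaling between libraries. The 10 pairs of genes compared in this way, those above included, were chosen after the values were seen. Srxn1 stood at 0.331 times the level of Prdx1 with AS and at 0.122 times with the vehicle, 2.71 times as high, with an interval from 2.53 to 2.89. Relative to Prdx2 it was 2.23 times as high (2.08 to 2.40), and relative to Prdx3, whose product is mitochondrial, 1.84 times (1.65 to 2.04). Prdx6 relative to Prdx1 was 1.65 times as high with AS (1.56 to 1.76). By contrast, Prdx3 relative to Txn2, both mitochondrial, was 1.04 times as high, and the interval from 0.909 to 1.18 held 1.

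**Figure D3:**
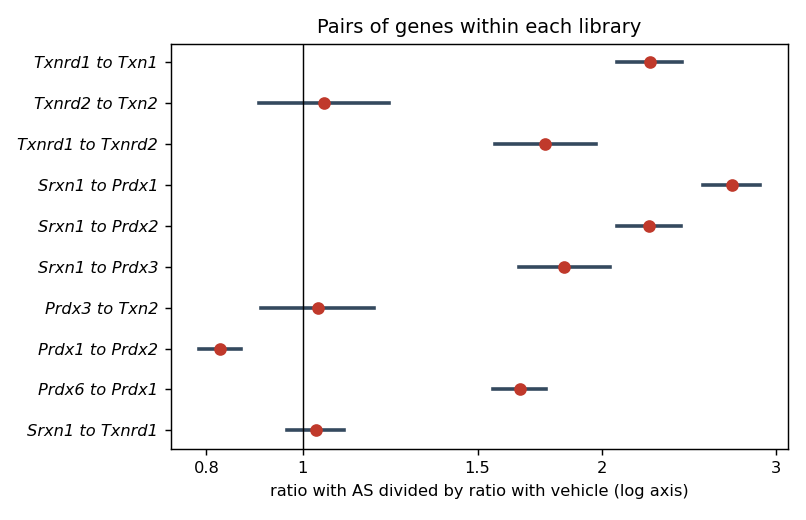
Ratio of each pair of genes with AS divided by the same ratio with the vehicle, on a log axis (points), with 95% exact conditional intervals of the reads (bars). Pairs that set Txnrd1 or Srxn1 against another gene lie between 1.76 and 2.71, except Srxn1 to Txnrd1 at 1.03, and both mitochondrial pairs have bars that cross 1.

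The direction of the differences varied with level over the table. Among the 4078 genes with a mean of 10 to 100 RPKM, which include all of the system but Txn2 and Txnrd2, the median log2 fold change was 0.02, with quartiles of -0.12 and 0.16. In that range 1.91% of genes were higher and 1.59% lower by more than 1.5-fold. The median was 0.10 at 1 to 10 RPKM and -0.09 above 100 RPKM. The part of this trend in the lower values of Prdx1, Prdx5, Prdx2 and Txn1 was not tested. Txn1, Prdx1, Prdx2 and Prdx5 lay below the lower of these quartiles, and Txnrd1, Srxn1 and Prdx6 above the upper one.

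**Figure D4:**
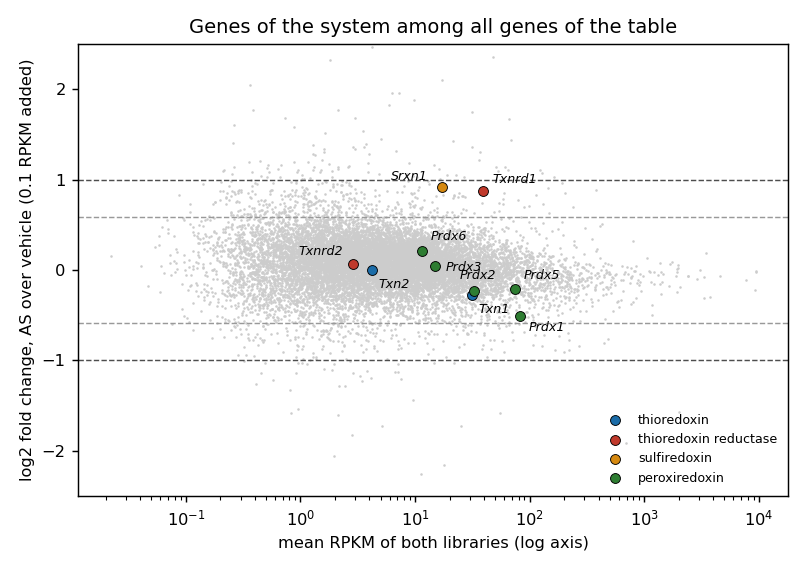
Log2 fold change of AS over vehicle with 0.1 RPKM added, against the mean RPKM of both libraries on a log axis, for all genes (grey, 5 of them outside the plotted range) and the 10 genes of the system (coloured by role). Txnrd1 and Srxn1 lie between the 1.5-fold line and the line at 1 (dashed), and the other 8 genes lie within 1.5-fold.

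Txnrd1, Srxn1 and Prdx1 are textbook targets of NRF2, a factor that binds antioxidant response elements. The stretches before their transcription starts are shown because the 3 genes carry the core of this element or a related stretch, and differed in direction. RefSeq promoters (GRCm38.p6) were matched for 9 of the 10 genes by symbol, all but Prdx6, and 250 bases before each start were searched on both strands for TGACNNNGC, the core of the element, for TGAGNNNGC, and for TGANTCA, the related AP-1 site, which can overlap either. Of 32851 promoter windows of this length, 10.2% held the first, 14.4% the second and 6.75% the third. Counted by gene, as the system was, the shares were 14.0%, 18.9% and 5.56% of the 9680 genes of the table with a promoter entry. Of the 9 genes, 2 held each. Capitals mark the matches, which on the minus strand appear as the reverse complement. Each sequence is the stretch of the window free of GENCODE exons, read towards the start, and distances are counted from the RefSeq start, which lies a short way past its end. They are chr2:152105274-152105515 for Srxn1, chr10:82859009-82859178 for the second of 3 starts of Txnrd1, and chr4:116685349-116685543 for Prdx1, all on the plus strand.
Srxn1: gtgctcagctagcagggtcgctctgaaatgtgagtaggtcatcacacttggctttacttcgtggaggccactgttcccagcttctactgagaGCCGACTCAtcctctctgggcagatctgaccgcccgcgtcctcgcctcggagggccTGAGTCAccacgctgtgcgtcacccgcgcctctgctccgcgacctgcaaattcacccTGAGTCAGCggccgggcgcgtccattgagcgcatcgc
Txnrd1: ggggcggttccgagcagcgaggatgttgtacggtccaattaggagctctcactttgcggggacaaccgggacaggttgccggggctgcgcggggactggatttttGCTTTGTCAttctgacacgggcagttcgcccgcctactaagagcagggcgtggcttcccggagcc
Prdx1: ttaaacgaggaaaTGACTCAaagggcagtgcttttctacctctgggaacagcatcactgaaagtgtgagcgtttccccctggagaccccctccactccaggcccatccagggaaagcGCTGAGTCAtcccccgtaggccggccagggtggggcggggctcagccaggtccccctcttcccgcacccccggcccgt
Srxn1 had no TGACNNNGC, but had TGAGNNNGC at 158 and 45 bases before its start and TGANTCA at 102 and 45. Txnrd1 had TGACNNNGC at 92 bases before this start, and its other starts had no match. Prdx1, which was lower with AS, had TGACNNNGC at 133 bases and TGANTCA at 237 and 131 bases. Txn2 had TGAGNNNGC at 187 bases. The windows of Txn1, Txnrd2, Prdx2, Prdx3 and Prdx5 had none of these letters. A match is a stretch of letters, and binding was not measured here.

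Genes outside the system that are known for the same element were set beside it. The list of 8 antioxidant response genes was chosen with earlier results of these data known. All 8 were higher with AS, beside 60.9% of all genes, and they were higher under every scaling tried. Their median was 0.44, and 3 were higher by more than 1 on the log2 scale, beside 0.662% of all genes. The 3 were Slc7a11, the cystine transporter (log2 fold change 3.47), Nqo1, a quinone reductase (1.77), and Gclc, the catalytic subunit of glutathione synthesis (1.19). Srxn1 and Txnrd1 were below these 3 and above the other 5 genes of that list. In the same promoter search, TGACNNNGC was found for Gclm (log2 fold change 0.22) and G6pdx (0.29). Slc7a11 had TGAGNNNGC only, Osgin1 (0.47) had TGAGNNNGC and TGANTCA, and Nqo1 had no match. Gclc, Hmox1 and Gsr had no promoter entry. The part of NRF2 in these values was not tested.

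Proteins that draw on thioredoxin were followed in a list of 10 client genes. Of these, 0 were higher and 1 was lower by more than 1.5-fold, beside 3.56% and 2.01% of all genes. The lower one was Rrm2, a subunit of ribonucleotide reductase, an enzyme that takes electrons from thioredoxin. It was at 9.32 RPKM under AS against 16.3 under vehicle, or -0.80 on the log2 scale. The listed genes of the other subunits, Rrm1 and Rrm2b, were at -0.46 and 0.32, both within 1.5-fold. Of the 10 clients, 5 were higher and 5 lower with AS. The median of the list was -0.01. Of 3 sestrin genes, 1 was higher by more than 1.5-fold, beside 3.56% of all genes, and the median was 0.16. The higher one was Sesn2, at 2.68 RPKM under AS against 1.55 under vehicle. With 1 RPKM added its log2 fold change was 0.53, short of 1.5-fold. None of 4 glutaredoxin genes, which serve the parallel glutathione route, passed 1.5-fold, and their median was -0.08. None of 7 genes of other superoxide and peroxide enzymes passed it either, with a median of 0.01.

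The selenium side of the system was followed in 2 lists. Of 9 genes for making selenoproteins, 1 was higher by more than 1.5-fold, beside 3.56% of all genes. This was Secisbp2l, a relative of a factor that binds the selenocysteine signal in mRNA. The median of the list was 0.03, and Secisbp2l was at 19.0 RPKM under AS against 12.1 under vehicle. Under TMM scaling its log2 fold change was 0.583, just short of 1.5-fold. Of 19 other selenoprotein genes, 16 were in the table, 12 of these lay below the median of all genes, and the median was -0.09. Txnrd3, Gpx1, Gpx4 and Msrb1 of that list also stand in other lists here, and without them 8 of 12 genes lay below the median of all genes, with a median of -0.05. Dio2, a deiodinase, was the 1 gene past 1.5-fold, at 0.465 RPKM under AS against 0.245 under vehicle. Of all genes, 3.56% were higher by as much. For Dio2 no whole number of reads could be recovered, and with 1 RPKM added its log2 fold change was 0.23.

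**Figure D5:**
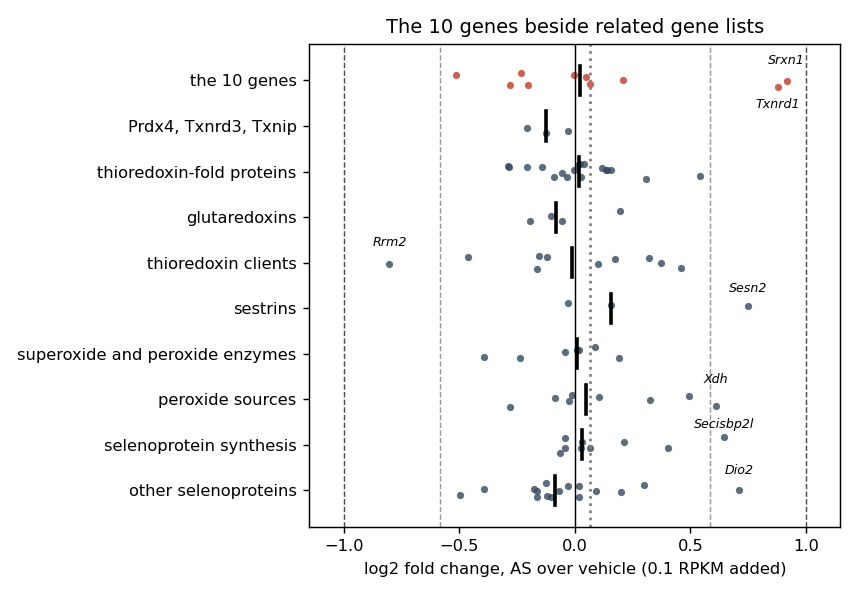
Log2 fold change of AS over vehicle with 0.1 RPKM added for each gene (points) of the system and of 9 related lists, with the median of each list (black bars), the median of all genes (dotted line), and 1.5-fold and a log2 fold change of 1 (dashed lines). Genes past 1.5-fold are named, and Srxn1 and Txnrd1 lie furthest to the right. The antioxidant response genes are not drawn.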

How the data were processed

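RNA was sequenced from 1 library of 4T1 cells with AS and 1 with the vehicle. The submitters' notes name fastp 0.23.4, STAR 2.5.3a, featureCounts and the build GRCh38, a human build. The deposited RPKM values carry mouse symbols and were made by the authors; the annotation, strand setting and low-count filter are not given in the sources used here. Deposited columns of the authors' own comparison (fold change, mean level, p-value, FDR) were not used.

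RPKM times the summed exon length of GENCODE M21 (GRCm38) was whole, within 0.02, in both libraries for 12718 of 13502 genes with a single entry, once the library size was found. The recovery was tested on simulated data. Fold changes are AS over vehicle on the log2 scale after adding 0.1 RPKM. Thresholds were a log2 fold change of 1, and 1.5-fold. With 1 library per condition no test was run. Intervals of single genes are 95% Clopper-Pearson, from the reads, and for pairs exact conditional odds ratio intervals; reads are not independent molecules, so they cover counting error only. Alternatives were 0 or 1 RPKM added, and total count, TMM, median-of-ratios or upper-quartile scaling of whole reads with 0.5 added.

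The 10 genes and all lists were chosen with earlier results of these data known. Named beside the 10 genes are Prdx4, Txnrd3 and Txnip. Per list, the genes beyond a log2 fold change of 1 are named or, if fewer than 4, those beyond 1.5-fold. Rrm1 and Rrm2b, within 1.5-fold, are named as the other subunits beside Rrm2. The motifs, pairs and level ranges were chosen after the values were seen. Computations used Python 3.11.15, numpy 2.4.6, pandas 2.3.3 and scipy 1.17.1. An overlap of 1 gene of the system with another gene is not reported here.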

Additional observations from a re-analysis of the deposited data

How the results depend on the processing

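The count of genes of the system beyond a log2 fold change of 1 was 0 in each direction under all 6 scalings and added amounts. At 1.5-fold it was 2 higher and 0 lower, except that upper-quartile scaling gave 1 lower, Prdx1. Over all genes, 94 were higher and 44 lower by more than 1. With 0 RPKM added 161 were higher, with 1 RPKM added 38 were higher and 16 lower, and at 1.5-fold 505 were higher and 286 lower. The counts at 1.5-fold were 659 and 354 with 0 RPKM added, 189 and 130 with 1 RPKM added, and 417 and 386 under TMM scaling. Of 60 values of single genes of the system under these settings, 12 moved by more than the distance from the value to a bound of its counting interval. The median of the 10 genes was 0.02, and it was -0.05 with TMM, median-of-ratios or upper-quartile scaling, while the mean was 0.09. No paired analysis was possible because there is 1 library per condition, and leaving out a library could not be run for the same reason. Depth gave intervals of about 0.08 on the log2 scale to either side for a typical gene of the system, but the spread between cultures is not known.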

Other observations

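Other proteins with a thioredoxin fold include the disulfide isomerases of the endoplasmic reticulum. Of 19 listed genes, 18 were in the table, 12 of these lay below the median of all genes, and their own median on the log2 scale was 0.02. Values ran from -0.29 to 0.54, so that none passed 1.5-fold, beside 3.56% of all genes higher and 2.01% lower. Without an added amount the highest, Txndc16, was at 0.62 and past it.

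Of 11 listed genes of enzymes and proteins linked to peroxide production, 8 were in the table, with a median of 0.05. Xdh, the gene of xanthine dehydrogenase, was the 1 gene higher by more than 1.5-fold, beside 3.56% of all genes. It was at 11.4 RPKM under AS against 7.44 under vehicle, or 0.61 on the log2 scale. The remaining 7 lay within 1.5-fold. Under TMM scaling Xdh was at 0.55, short of 1.5-fold.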
